A study of Mus musculus with 15 samples.

Results

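The 10 genes described here make up the aggrecan, versican and hyaluronan machinery of cartilage matrix, and all 10 were found by symbol among the 24134 genes of both count tables. They comprise the proteoglycans *Acan* and *Vcan*, the link proteins *Hapln1* and *Hapln3*, the hyaluronan synthases *Has1*, *Has2* and *Has3*, the hyaluronan receptor *Cd44*, and *Cemip* and *Hyal2*, which act in hyaluronan breakdown.

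Aggrecan and versican are lecticans, large proteoglycans that bind hyaluronan through one end and carry chondroitin sulphate chains along their core. In cartilage, link proteins hold many aggrecan molecules on a single hyaluronan strand, and the charged aggregate draws in the water that lets the tissue bear load. Versican takes the place of aggrecan in many loose and early mesenchymal matrices. Hyaluronan itself is extruded by synthases in the plasma membrane, tethered to the cell by CD44, and cut down by hyaluronidases and by the CEMIP pathway.

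In the mouse build mm10 the lectican genes lie with *Acan* (gene 11595) at chr7:79053226-79115099 and *Vcan* (gene 13003) at chr13:89655309-89743027, and the link protein genes with *Hapln1* (gene 12950) at chr13:89540529-89611832 and *Hapln3* (gene 67666) at chr7:79117027-79133173. The synthase genes are spread over different chromosomes, with *Has1* (gene 15116) at chr17:17833691-17855589, *Has2* (gene 15117) at chr15:56665627-56694546 and *Has3* (gene 15118) at chr8:106870242-106882902. The receptor gene *Cd44* (gene 12505) lies at chr2:102811141-102901669, and the genes of breakdown are *Cemip* (gene 80982) at chr7:83932857-84086693 and *Hyal2* (gene 15587) at chr9:107567873-107572778.

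Primary articular chondrocytes, unpassaged and taken from the knees of ICR mice in the first postnatal week, were used in both experiments. In the drug experiment cells received DMSO, 10 μM XAV939 or 10 μM IWR-1 for 108 h. XAV939 and IWR-1 are small-molecule inhibitors of the tankyrases, enzymes that add ADP-ribose chains to other proteins. In the siRNA experiment cells were transfected with control siRNA (siCtrl) or with siRNAs against *Tnks* and *Tnks2* (siTnks/2), for a time not given in the sources used here. Each of the 5 groups had 3 biological replicates, and poly(A) RNA was sequenced. The comparisons asked how each way of lowering tankyrase activity or level changed expression against its own control.

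Library totals ranged from 26857070 to 36615194 counts. *Tnks* differed by −1.81 on the log2 scale (adjusted p = 0.00569, edgeR quasi-likelihood test) and *Tnks2* by −1.10 (adjusted p = 0.00384) in the siTnks/2 group. By the same test *Tnks2* was also lower with XAV939 (−0.41, adjusted p = 0.0394), where *Tnks* differed by −0.72 (adjusted p = 0.263). With IWR-1 *Tnks* differed by −0.19 (adjusted p = 0.754) and *Tnks2* by −0.27 (adjusted p = 0.105). All 15 chondrocyte markers had counts in every group, among them the collagen gene *Col2a1* and the transcription factor *Sox9*. Summed levels of endothelial markers were at most 6.88 CPM (counts divided by the scaled library total), of muscle markers at most 7.54 CPM and of leukocyte markers at most 54.5 CPM. The 7 fibroblast markers summed to between 2810 and 15276 CPM, and these sums are given beside the results they move with. One library, siTnks/2 replicate 2, stood apart with the lowest fibroblast marker sum (2810 CPM) and the highest chondrocyte marker sum (203590 CPM). It also had the highest leukocyte sum (54.5 CPM) and the highest endothelial sum (6.88 CPM, against at most 1.59 CPM in any other library). Results that change without siTnks/2 replicate 2 are given both ways. Libraries of the same replicate number deviated together within each experiment, though some drug libraries of different number did so too. A second fit with that number as an added term (the replicate block) is given where it changes the call of a member. It is also given where it changes the number called against a control in a list whose calls are reported.

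Expression moved in opposite directions within the group of 10. With IWR-1, *Acan*, *Hapln1* and *Has2* rose while *Vcan*, *Has1* and *Cd44* fell, so 6 of the 9 genes tested passed an adjusted p under 0.05, where 36.4% of all genes did. With XAV939, *Acan* and *Hapln1* rose and *Has1* fell, 3 of 9 tested against 17.4% of all genes. After siTnks/2, *Acan*, *Has2* and *Cemip* rose and 0 fell in edgeR, 3 of 8 tested against 18.0% of all genes. *Cd44* was lower after siTnks/2 at an unadjusted p = 0.0157 in edgeR (adjusted p = 0.0680) and was called lower by DESeq2. Of all genes, 35.6% had an unadjusted p under 0.05 in edgeR, *Hapln1* among them, and DESeq2 called 3124. *Has3* had too few counts for testing in either experiment, and *Has1* had too few in the siRNA experiment.

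With the replicate block the counts were 5 of 8 after siTnks/2 (34.6% of all genes), where falls of *Vcan* and *Cd44* were added, 5 of 9 with XAV939 (33.4%) and 7 of 9 with IWR-1 (47.5%). Libraries of treated and control groups did not overlap for 5 of 8 tested members after siTnks/2 (43.8% of all genes), for 4 of 9 with XAV939 (33.2%) and for 7 of 9 with IWR-1 (51.1%). The median absolute log2 fold change of the members tested was 0.45 after siTnks/2, against 0.20 over all genes. It was 0.49 against 0.24 with XAV939 and 1.12 against 0.31 with IWR-1. The siTnks/2 count was 1 without siCtrl replicate 1 or without siCtrl replicate 3, and 5 without siTnks/2 replicate 2. Among all genes, 2459 were called after siTnks/2, and 608 and 678 without these siCtrl libraries.

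**Figure D1:**
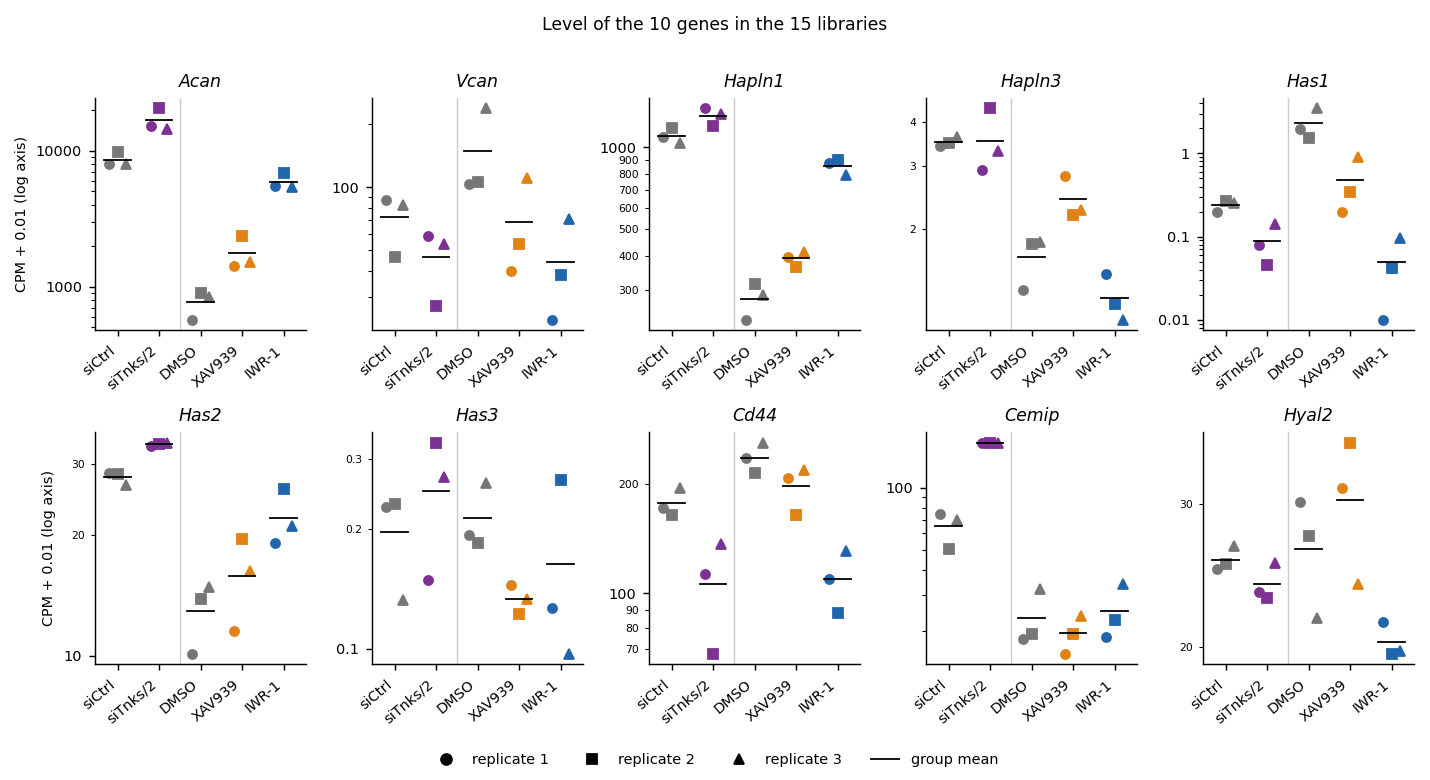
Level of each gene in the 15 libraries (y axis, CPM plus 0.01 on a log axis; x axis, group). Points are libraries with the shape giving the replicate number, and horizontal bars are group means. *Acan* lay above its control in every treated library and *Has1* below it, while *Hyal2* stayed between 19.6 and 35.7 CPM.

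*Acan* encodes aggrecan, the main proteoglycan of cartilage, and was the most abundant of the 10 genes per exon length in every group. In the siRNA experiment its level was 7919, 9784.5 and 8018 CPM with siCtrl and 15157, 20382 and 14393 CPM with siTnks/2. In the drug experiment it was 569.5, 889.7 and 835 CPM under DMSO, 1413, 2372 and 1519 CPM under XAV939, and 5488, 6829.6 and 5403.5 CPM under IWR-1. Every treated library lay above every control library, and the IWR-1 libraries lay above all XAV939 libraries. The tables were scaled separately, and *Acan* in the siCtrl libraries was well above its level in the DMSO libraries.

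*Acan* rose by 0.96 on the log2 scale after siTnks/2 (1.94-fold, SE 0.18, adjusted p = 0.0155). It rose by 1.21 with XAV939 (2.31-fold, SE 0.23, adjusted p = 0.00516) and by 2.95 with IWR-1 (7.72-fold, SE 0.24, adjusted p = 1.12e-05). In direct comparison the IWR-1 libraries were 3.34-fold above the XAV939 libraries (log2 1.74, SE 0.23, adjusted p = 0.000814). Within pairs of the same replicate number the log2 difference was 0.94, 1.06 and 0.84 for siTnks/2, 1.31, 1.41 and 0.86 for XAV939, and 3.27, 2.94 and 2.69 for IWR-1. The siTnks/2 call was lost without siCtrl replicate 1 (log2 0.91, adjusted p = 0.0767) or siCtrl replicate 3 (log2 0.91, adjusted p = 0.0728), and it was kept at 0.79 without siTnks/2 replicate 2, the library with the highest level.

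*Vcan* encodes versican and went the other way. Its level was 86.6, 46.4 and 82.7 CPM with siCtrl and 58.7, 27.0 and 53.6 CPM with siTnks/2. It was 104, 106 and 238 CPM under DMSO, 39.9, 53.6 and 111 CPM under XAV939, and 23.3, 38.0 and 70.6 CPM under IWR-1. The IWR-1 libraries lay below all DMSO libraries, whereas siTnks/2 and XAV939 libraries overlapped their controls. Replicate 3 was the highest in each drug group and replicate 2 the lowest in each siRNA group.

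*Vcan* fell by 1.76 on the log2 scale with IWR-1 (SE 0.48, adjusted p = 0.0151). The difference was −1.13 with XAV939 (SE 0.47, adjusted p = 0.125) and −0.63 with siTnks/2 (SE 0.33, adjusted p = 0.223). With the replicate block the latter differences passed, at −1.16 for XAV939 (SE 0.11, adjusted p = 1.97e-05) and −0.65 for siTnks/2 (SE 0.06, adjusted p = 0.00249). Each pair of libraries with the same number showed the fall, by −1.38, −0.99 and −1.10 for XAV939, by −0.56, −0.78 and −0.62 for siTnks/2, and by −2.15, −1.48 and −1.75 for IWR-1. The IWR-1 call was lost without IWR-1 replicate 1 (log2 −1.47, adjusted p = 0.0548), IWR-1 replicate 2 (log2 −1.66, adjusted p = 0.0593) or DMSO replicate 3 (log2 −1.26, adjusted p = 0.0516). XAV939 was called without XAV939 replicate 3 (log2 −1.69, adjusted p = 0.0404).

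The fibroblast markers moved with *Vcan*. Of 7 tested, 5 fell with XAV939 and 5 with IWR-1, and 0 passed after siTnks/2 in edgeR. With the replicate block 6, 6 and 2 fell. Of all genes, 17.4%, 36.4% and 18.0% were called in these comparisons, and 33.4%, 47.5% and 34.6% with the block. Their sum was 12225 to 15276 CPM under DMSO, 6334 to 8275 CPM under XAV939 and 5807 to 8721 CPM under IWR-1. It was 5350 to 9096 CPM with siCtrl and 2810 to 7841 CPM with siTnks/2, and replicate 2, low for *Vcan*, was the lowest of each siRNA group here too. In bulk RNA, fewer cells of a type and less RNA per cell cannot be told apart, and the part of these markers in the *Vcan* result was not tested.

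Set against each other, the lecticans shifted toward *Acan* in each comparison. Per kilobase of exon the ratio of *Acan* to *Vcan* was 10.0, 15.3 and 6.41 with DMSO, 64.6, 80.7 and 25.0 with XAV939, and 429, 328 and 140 with IWR-1. These 3 groups did not overlap. The ratio was 167, 384 and 177 with siCtrl and 471, 1375 and 489 with siTnks/2, again without overlap. *Vcan* is spliced into several forms, and one exon length over all of them was used, which limits the ratio as an absolute proportion.

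**Figure D2:**
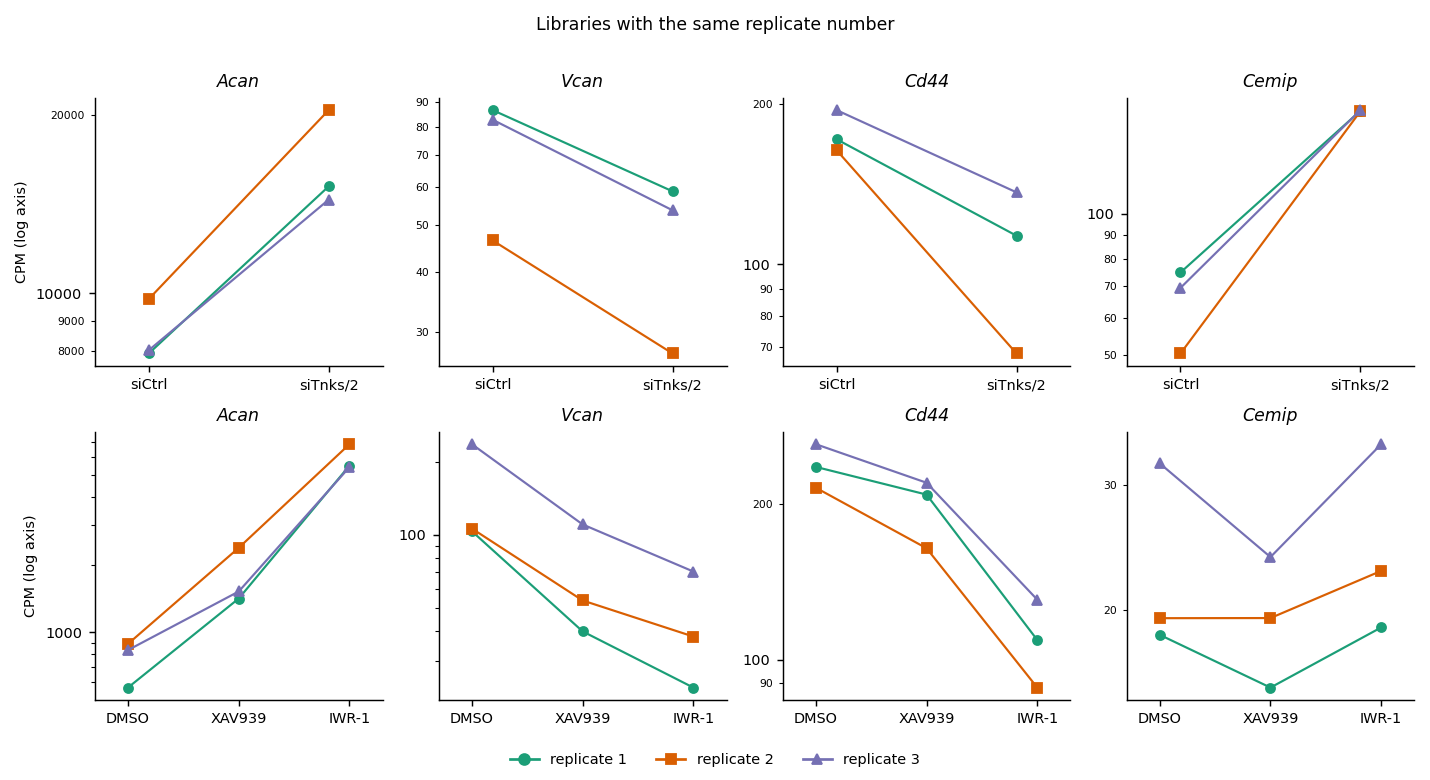
Levels of *Acan*, *Vcan*, *Cd44* and *Cemip* (y axis, CPM on a log axis) across the groups of the siRNA experiment (upper row) and the drug experiment (lower row). Each line joins the 3 replicates by number. *Vcan* lines run nearly parallel, with replicate 3 highest in the drug groups, and *Cemip* climbs to between 165 and 166 CPM in all siTnks/2 libraries.

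*Hapln1* encodes the cartilage link protein that locks aggrecan onto hyaluronan. Its level was 1093, 1179 and 1042 CPM with siCtrl and 1390.0, 1199 and 1332 CPM with siTnks/2. In the drug experiment it was 232, 314 and 286 CPM under DMSO, 396, 365 and 412 CPM under XAV939, and 873, 899.8 and 793 CPM under IWR-1. Both drugs separated fully from DMSO and from each other, and siTnks/2 separated from siCtrl by a narrow margin.

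*Hapln1* rose by 1.62 on the log2 scale with IWR-1 (3.08-fold, SE 0.13, adjusted p = 9.48e-06) and was the one member past the limits set in the study, a fold above 3 with an adjusted p under 1e-05, when these were applied to edgeR, where 1.05% of all genes passed. Applied to DESeq2, the tool of the study, they were passed with IWR-1 by *Acan*, *Hapln1* and *Has1*, among 660 of all genes. *Hapln1* rose by 0.49 with XAV939 (SE 0.13, adjusted p = 0.0230), and the IWR-1 libraries were higher than the XAV939 libraries by 1.13 (adjusted p = 0.000339). After siTnks/2 the difference was 0.24 (95% interval 0.03 to 0.45, adjusted p = 0.103). The XAV939 call was lost without DMSO replicate 1 (log2 0.38, adjusted p = 0.0976), XAV939 replicate 1 (log2 0.49, adjusted p = 0.0649) or XAV939 replicate 3 (log2 0.44, adjusted p = 0.0610), and when only the DMSO and XAV939 groups were fitted (log2 0.48, adjusted p = 0.067). The siTnks/2 difference was called without siTnks/2 replicate 2 (log2 0.30, adjusted p = 0.0326).

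*Hapln3*, a link protein found widely outside cartilage, was a minor transcript of 1.10 to 4.35 CPM. Its log2 difference was 0.01 after siTnks/2 (95% interval −0.42 to 0.43), 0.53 with XAV939 (adjusted p = 0.0935) and −0.37 with IWR-1 (adjusted p = 0.193). In direct comparison the IWR-1 libraries, at 1.48, 1.22 and 1.10 CPM, fell below the XAV939 libraries, at 2.80, 2.18 and 2.25 CPM (log2 −0.90, SE 0.21, adjusted p = 0.0120). That call was lost without XAV939 replicate 1, IWR-1 replicate 2 or IWR-1 replicate 3, with log2 values of −0.78, −0.87 and −0.81 and adjusted p values of 0.0518, 0.0559 and 0.0505. The log2 CPM of *Hapln1* exceeded that of *Hapln3* by 9.14, 9.46 and 9.41 in the IWR-1 libraries, by 7.11, 7.35 and 7.48 in the XAV939 libraries and by 7.37, 7.40 and 7.25 in the DMSO libraries. The IWR-1 libraries thus stood apart from both other drug groups, which overlapped.

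The 4 lectican and link protein genes lie in neighbouring pairs. *Acan* (plus strand) ends 1927 bases from *Hapln3* (minus strand) on chromosome 7, and *Hapln1* (plus strand) ends 43476 bases from *Vcan* (minus strand) on chromosome 13. In both pairs the members were transcribed toward each other. With IWR-1 *Hapln1* rose and *Vcan* fell, whereas *Acan* rose and *Hapln3* was not called. The 250 bases before the RefSeq start (mouse build GRCm38.p6) are printed for *Acan*, which rose in each comparison with a control. They run 5′ to 3′ on the strand of the gene, and capitals mark the one motif match found in them.
*Acan*, chr7:79052976-79053225, plus strand: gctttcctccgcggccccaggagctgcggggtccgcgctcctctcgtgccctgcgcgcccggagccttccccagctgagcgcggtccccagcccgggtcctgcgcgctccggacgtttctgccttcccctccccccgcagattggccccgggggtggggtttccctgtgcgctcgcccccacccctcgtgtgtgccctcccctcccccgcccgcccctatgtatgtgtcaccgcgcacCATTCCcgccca

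The *Acan* and *Vcan* windows held 74.4% and 62.4% G and C, and the *Hapln1* and *Has1* windows 54.4% and 58.0%, against a median of 52.4% over 32851 windows of the same length. The window of *Hapln1* lay wholly, that of *Hyal2* by 180 bases and that of *Has1* by 17 bases, within GENCODE exons of the same gene. The windows of *Vcan*, *Hapln3*, *Has1* and *Hyal2* lay inside the gene spans given above, so they are not upstream of the whole gene. The *Acan* window ended 257 bases before the outermost GENCODE start, so its positions hold for the RefSeq start only. Both strands were searched for the letters ACAATG and ACAAAG (SOX factors), CTTTGAT (TCF and LEF factors), GGAATG (TEAD factors) and TGANTCA (AP-1). Of 8 members with a window, *Acan* and *Hyal2* held GGAATG, read on the opposite strand as CATTCC, 12 to 7 and 229 to 224 bases before the start. Of all windows 12.6% held it. No member window held ACAATG (10.7% of all windows), ACAAAG (16.5%), CTTTGAT (3.21%) or TGANTCA (6.75%).

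Hyaluronan synthases differed from each other. *Has1*, which makes hyaluronan at a low rate compared with its relatives, had 64, 52 and 110 counts with DMSO, 7, 9 and 29 with XAV939, and 0, 1 and 3 with IWR-1. In the siRNA experiment it had 6, 7 and 8 counts with siCtrl and 2, 1 and 4 with siTnks/2. Every treated library lay below its controls. Summed over replicates, the level with IWR-1 was 0.0175 of that with DMSO (exact 95% interval 0.00473 to 0.0455), with XAV939 0.205 (0.145 to 0.283), and with siTnks/2 0.350 of siCtrl (0.126 to 0.855). These intervals cover counting error only.

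In the fitted model *Has1* fell by 2.15 on the log2 scale with XAV939 (SE 0.52, adjusted p = 0.0126) and by 4.55 with IWR-1 (SE 0.77, adjusted p = 0.000189), the latter depending on the prior count since IWR-1 libraries held so few reads. *Has1* entered the fit through its DMSO counts, so these falls from DMSO are tied to the filter. The IWR-1 libraries also fell below the XAV939 libraries (log2 −2.40, SE 0.95, adjusted p = 0.0262). Without XAV939 replicate 2 the XAV939 call was lost (adjusted p = 0.0546), and without XAV939 replicate 3, the highest of its group, the fall was −2.92. The direct call was lost without IWR-1 replicate 1 (adjusted p = 0.0923), IWR-1 replicate 2 (adjusted p = 0.0882) or XAV939 replicate 3 (log2 −1.64, adjusted p = 0.0925).

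*Has2*, the main hyaluronan synthase of chondrocytes, rose after siTnks/2 and with IWR-1. Its level was 28.5, 28.3 and 26.7 CPM with siCtrl against 33.3, 33.8 and 34.0 CPM with siTnks/2. It was 10.1, 13.8 and 14.9 CPM under DMSO, 11.5, 19.6 and 16.3 CPM under XAV939, and 19.0, 26.1 and 21.0 CPM under IWR-1. The siTnks/2 and IWR-1 libraries stood clear of their controls, and XAV939 libraries overlapped with DMSO.

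*Has2* rose by 0.27 on the log2 scale after siTnks/2 (SE 0.06, adjusted p = 0.0232) and by 0.77 with IWR-1 (SE 0.21, adjusted p = 0.0147). The difference was 0.28 with XAV939 (95% interval −0.18 to 0.75, adjusted p = 0.380), and 0.48 between IWR-1 and XAV939 (adjusted p = 0.139; with the replicate block 0.50, adjusted p = 0.00606). The siTnks/2 call was lost in 4 of 6 fits, without siCtrl replicate 1, 2 or 3 or siTnks/2 replicate 1, with log2 values of 0.30, 0.29, 0.25 and 0.28 and adjusted p values of 0.0806, 0.0618, 0.0950 and 0.0749. The IWR-1 call was lost without DMSO replicate 1 (log2 0.62, adjusted p = 0.0643) or IWR-1 replicate 2 (log2 0.63, adjusted p = 0.0664). *Has2* shares 182 exon bases with the antisense gene *Has2os*, which had 14 to 72 counts, and reads of both cannot be told apart without the strand setting of the counting.

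*Has3* had 3 to 9 counts in all 15 libraries and passed no filter. The ratio of summed levels was 1.30 for siTnks/2 (exact 95% interval 0.652 to 2.62), 0.618 for XAV939 (0.275 to 1.33) and 0.742 for IWR-1 (0.353 to 1.52), and no difference was detectable at this depth, although all 3 XAV939 libraries lay below DMSO. Its 352 exon bases shared with *Chtf8* on the opposite strand add to the uncertainty.

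*Cd44* encodes the receptor that keeps hyaluronan at the cell surface. Its level was 172, 164 and 195 CPM with siCtrl and 113, 67.9 and 137 CPM with siTnks/2. It was 236, 215 and 261 CPM under DMSO, 208, 164 and 219.6 CPM under XAV939, and 109, 88.3 and 131 CPM under IWR-1. The siTnks/2 and IWR-1 libraries were all below their controls, and the IWR-1 libraries were all below the XAV939 libraries.

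*Cd44* fell by 1.12 on the log2 scale with IWR-1 (SE 0.16, adjusted p = 0.000310), and the IWR-1 libraries were lower than the XAV939 libraries by −0.85 (adjusted p = 0.00451). After siTnks/2 the difference was −0.74 (95% interval −1.29 to −0.19, adjusted p = 0.0680), and with the replicate block −0.79 (adjusted p = 0.0144). With XAV939 it was −0.26 (adjusted p = 0.274), and with the block −0.27 (adjusted p = 0.0333). Pairs of the same number differed by −0.60, −1.27 and −0.51 after siTnks/2. The siTnks/2 difference was also called by DESeq2 (log2 −0.74, adjusted p = 0.00808), without siTnks/2 replicate 2 (log2 −0.50, adjusted p = 0.0176) and without siTnks/2 replicate 3 (log2 −0.97, adjusted p = 0.0363).

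**Figure D3:**
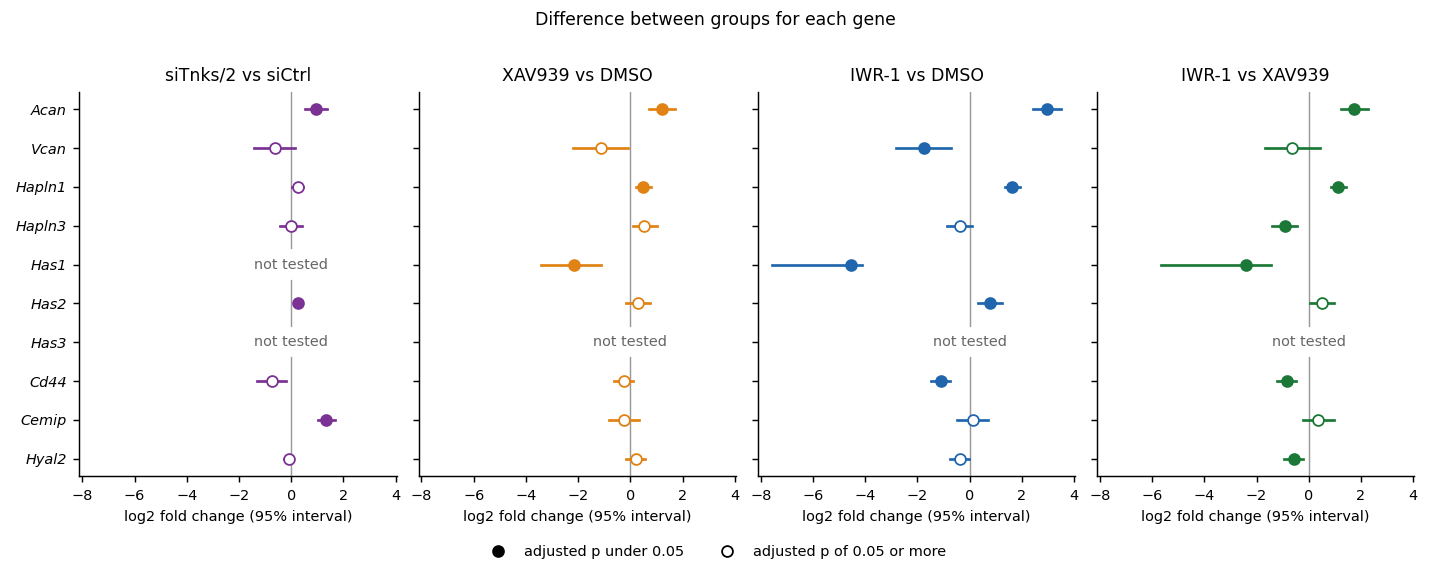
Log2 fold change of each gene with its 95% interval (x axis) in 4 comparisons (panels), with filled points for an adjusted p under 0.05. Points include the prior count and intervals do not, so the *Has1* points lie off the middle of their intervals. *Acan* lies to the right of 0 in all panels, *Cemip* does so at 1.35 with siTnks/2 while its intervals cross 0 with both drugs, and *Has1* lies farthest left with IWR-1.

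*Cemip*, which encodes a hyaluronan-binding protein required for hyaluronan depolymerization in fibroblasts, rose after siTnks/2 alone among the comparisons with controls. Its level was 74.9, 50.4 and 69.5 CPM with siCtrl and 165, 165 and 166 CPM with siTnks/2. It was 18.4, 19.5 and 32.2 CPM under DMSO, 15.5, 19.5 and 23.7 CPM under XAV939, and 18.9, 22.7 and 34.2 CPM under IWR-1. The siTnks/2 libraries lay far above siCtrl, and the 3 drug groups overlapped one another.

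*Cemip* rose by 1.35 on the log2 scale after siTnks/2 (2.54-fold, SE 0.14, adjusted p = 0.00384), and this call held whichever library was left out. The difference was −0.25 with XAV939 (95% interval −0.84 to 0.33) and 0.11 with IWR-1 (95% interval −0.47 to 0.70). The difference between the effects was itself tested over all 15 libraries, where 13.5% of genes passed for XAV939 and 24.4% for IWR-1. The XAV939 effect on *Cemip* was lower than the siTnks/2 effect by −1.62 (SE 0.34, adjusted p = 0.00738) and the IWR-1 effect by −1.24 (SE 0.34, adjusted p = 0.0152). Between IWR-1 and XAV939 the difference was 0.37 (adjusted p = 0.381), or 0.34 with the replicate block (adjusted p = 0.0250).

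*Hyal2*, a membrane-anchored hyaluronidase that makes the initial cuts in long hyaluronan, had no call against either control. It was 24.9, 25.3 and 26.6 CPM with siCtrl and 23.4, 23.0 and 25.4 CPM with siTnks/2 (log2 −0.10, 95% interval −0.27 to 0.07). With DMSO it was 30.2, 27.4 and 21.7 CPM, with XAV939 31.4, 35.7 and 23.9 CPM, and with IWR-1 21.5, 19.6 and 19.8 CPM. The IWR-1 libraries lay just below the lowest DMSO library. The log2 difference was 0.20 with XAV939 (adjusted p = 0.425) and −0.38 with IWR-1 (adjusted p = 0.0901), the latter called with the block (log2 −0.36, adjusted p = 0.0208), without DMSO replicate 3 (log2 −0.51, adjusted p = 0.0264) and without XAV939 replicate 3 (log2 −0.39, adjusted p = 0.0411). The IWR-1 libraries were below the XAV939 libraries by −0.58 (adjusted p = 0.0314), a call lost in 5 of 9 fits that each left out an XAV939 or IWR-1 library other than XAV939 replicate 3, with log2 values between −0.61 and −0.45 and adjusted p values between 0.0743 and 0.115.

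Directly compared, 6 of 9 members differed between IWR-1 and XAV939 (17.6% of all genes did), and libraries of the drugs did not overlap for 6 of 9 (37.6% of all genes), with *Acan* and *Hapln1* higher and *Hapln3*, *Has1*, *Cd44* and *Hyal2* lower with IWR-1. The replicate block added *Vcan* (log2 −0.63, adjusted p = 0.00150), *Has2* and *Cemip*, for 9 of 9 against 30.7% of all genes. Without IWR-1 replicate 2 the count was 3. With at least 10 counts in every library, which drops *Has1*, it was 5 (2222 of all genes). The dose and time were the same for both drugs, and their libraries share the DMSO controls.

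The IWR-1 effect also differed from the siTnks/2 effect for 4 of 9 members, against 24.4% of all genes. It was larger for *Acan* by 1.98 on the log2 scale (SE 0.32, adjusted p = 0.000472) and for *Hapln1* by 1.37 (SE 0.16, adjusted p = 4.2e-05). The IWR-1 effect was lower for *Cemip* and for *Has1* (−3.49, SE 1.36, 95% interval −7.25 to −1.43, adjusted p = 0.0311). *Has1* was not tested in the siRNA experiment alone and entered the joint fit through its DMSO libraries. With 6, 7 and 8 counts with siCtrl it had little room to fall, so its difference cannot be told from that low level. The *Has1* call was lost in 5 of 15 fits, those without siCtrl replicate 1, siTnks/2 replicate 1 or 3, or IWR-1 replicate 1 or 2, with adjusted p values of 0.0528, 0.0613, 0.158, 0.062 and 0.0581 and log2 values over the 15 fits between −3.88 and −3.08. The XAV939 effect differed from the siTnks/2 effect for *Cemip* alone among 9 members. For *Acan* that difference was 0.24 (95% interval −0.43 to 0.91) and for *Hapln1* 0.24 (95% interval −0.11 to 0.58). With the block *Vcan* (log2 −0.52, adjusted p = 0.0185) and *Cd44* (log2 0.51, adjusted p = 0.0375) were added for XAV939, and *Vcan* (log2 −1.15, adjusted p = 6.4e-05) and *Has2* (log2 0.49, adjusted p = 0.0174) for IWR-1.

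Per kilobase of merged exon, *Acan* came first and *Hapln1* next in every group, at means of 1166 ± 143 and 193 ± 12.1 CPM per kb (SD, n = 3) with siCtrl and 104 ± 23.3 and 48.6 ± 7.30 with DMSO. *Cd44* was the third in 4 groups, and with DMSO its libraries overlapped those of *Hapln1*. With siTnks/2 *Cemip* took the third place at 23.3 ± 0.0654 CPM per kb, overlapping *Cd44* at 18.7 ± 6.17. *Vcan* was at the fourth place with DMSO (11.1 ± 5.71), where only replicate 3 (17.7) lay above *Hyal2*, at 6.67 in that library. In replicates 1 and 2 *Vcan* was 7.73 and 7.93 and *Hyal2* 9.27 and 8.40. By its mean *Vcan* was the seventh with IWR-1 (3.28 ± 1.80), where its libraries overlapped those of *Cemip* just above it. *Hapln3*, *Has1* and *Has3* took the last 3 places in every group. *Cd44* and *Vcan* have several transcripts, which a single exon length does not resolve.

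Genes whose log2 CPM followed *Acan* most closely over the 9 drug libraries were *Gfpt2* (Pearson r = 0.996), which feeds the hexosamine pathway, *Pabpc4* (0.995), *Sox9* (0.995), *Cep126* (0.994) and *Ric3* (0.994). Over the 6 siRNA libraries they were *Chad* (0.999), a cartilage leucine-rich protein, *Cyp7b1* (0.999), *Pde7a* (0.998), *Gpx3* (0.998) and *Tm9sf3* (0.998). Among members, *Hapln1* had r = 0.971 over the drug libraries, while *Vcan* had −0.72, *Cd44* −0.95, *Has1* −0.92 and *Cemip* 0.20. Over the siRNA libraries *Hapln1* had 0.71, *Cemip* 0.85, *Vcan* −0.83 and *Cd44* −0.94. Counted from the highest r among 13873 genes of the drug experiment, *Hapln1* ranked 152, *Vcan* 11424 and *Cd44* 13575. Among 13672 genes of the siRNA experiment *Hapln1* ranked 3268, *Cemip* 2017, *Vcan* 11342 and *Cd44* 12907, so many genes had values as extreme. These values describe libraries that fall into groups and share their scaling, across genes that are not independent replicates.

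The other genes of the pathway were read as lists. Sugar nucleotides are the building blocks of hyaluronan and chondroitin sulphate, and 10 of 10 supply genes were tested. With IWR-1 5 rose and 2 fell (36.4% of all genes were called), with XAV939 1 rose and 1 fell (17.4%), and after siTnks/2 2 rose and 1 fell (18.0%). Calls that held in every fit leaving out 1 library were 5 of 7 with IWR-1, 2 of 2 with XAV939 and 0 of 3 after siTnks/2. *Ugdh*, which makes the glucuronic acid donor of both chains, fell in each, from 428, 387 and 440 CPM under DMSO to 218, 165 and 267 CPM under XAV939 (log2 −0.95, adjusted p = 0.00248) and 202, 196 and 222 CPM under IWR-1 (log2 −1.02, adjusted p = 0.000513). After siTnks/2 it fell from 189, 221 and 210 CPM to 144, 138 and 159 CPM (log2 −0.49, adjusted p = 0.0130), a call lost without siTnks/2 replicate 1 (log2 −0.48, adjusted p = 0.0556) or siCtrl replicate 3 (log2 −0.48, adjusted p = 0.0551). *Gfpt2*, which controls entry to the hexosamine pathway, rose by 0.54 with XAV939 and by 1.34 with IWR-1 (adjusted p = 1.64e-05). With IWR-1 *Slc35d1* (0.86), *Pgm3* (0.44) and *Gnpnat1* (0.43) rose too, and *Uap1* (−0.66) fell, while *Gfpt1* (0.53) and *Ugp2* (0.27) rose after siTnks/2. The *Gnpnat1* call was lost in 4 of 9 fits that left out 1 library. With the block 5 rose and 1 fell after siTnks/2, 1 rose and 3 fell with XAV939, and 6 rose and 2 fell with IWR-1. Of all genes, 34.6%, 33.4% and 47.5% were called with the block.

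The next list held enzymes that build and sulphate the chondroitin chains of the lecticans. Of 20 tested, 9 rose and 4 fell with IWR-1, 3 rose and 2 fell with XAV939, and 5 rose and 2 fell after siTnks/2, with medians of 0.33, 0.21 and 0.18 on the log2 scale against medians within 0.02 of 0 over all genes. Of all genes, 36.4%, 17.4% and 18.0% were called in these comparisons. The calls that held in every fit leaving out 1 library were 11 of 13 with IWR-1, 1 of 5 with XAV939 (*Papss2*) and 0 of 7 after siTnks/2. *Papss2*, which makes the sulphate donor, was 147, 194 and 195 CPM under DMSO and 761, 787 and 698 CPM under IWR-1 (log2 2.07, adjusted p = 2.97e-06). The sulphate transporter *Slc26a2* rose by 2.32 with IWR-1 (adjusted p = 0.00082), from 11.6, 11.9 and 30.7 CPM to 70.4, 85.4 and 115 CPM, and by 2.93 without DMSO replicate 3. *Fam20b*, the kinase that primes chain growth, rose by 0.86 with IWR-1 (adjusted p = 7.23e-05). The chain-building genes *Csgalnact1* (0.98), *Chsy3* (0.68), *Chsy1* (0.52), *B4galt7* (0.40) and *B3gat3* (0.35) and the sulphotransferase gene *Chst11* (0.65) rose with IWR-1 too, whereas *Chst15* (−0.97), *Chst12* (−0.68), *Xylt2* (−0.52) and *Chpf2* (−0.29) fell. With XAV939 *Papss2* (0.63), *Chpf* (0.50) and *Fam20b* (0.38) rose and *Chst15* (−0.90) and *Xylt2* (−0.29) fell. After siTnks/2 *Xylt1* (0.71), *Chsy1* (0.71), *Papss2* (0.69), *Csgalnact1* (0.42) and *Fam20b* (0.41) rose, and *Chst7* (−1.11) and *Chsy3* (−0.28) fell. With the block 10 rose and 2 fell after siTnks/2, 5 rose and 4 fell with XAV939, and 11 rose and 4 fell with IWR-1. Of all genes, 34.6%, 33.4% and 47.5% were called with the block.

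Of the hyaluronan-binding genes other than *Cd44*, 7 of 9 tested fell and 1 rose with IWR-1, where 36.4% of all genes were called. With XAV939 2 of 9 fell (17.4% of all genes called) and after siTnks/2 2 of 8 (18.0%). *Itih2*, a heavy chain that is coupled to hyaluronan, fell in each, by −0.71 after siTnks/2 (adjusted p = 0.00773), −0.79 with XAV939 (adjusted p = 0.00303) and −0.95 with IWR-1 (adjusted p = 0.000305). The others that fell with IWR-1 were the receptor genes *Stab1* (−1.45), *Layn* (−0.78) and *Hmmr* (−0.83) and the matrix genes *Itih5* (−1.24) and *Ptx3* (−0.79), and *Habp4* (0.70) rose. *Tnfaip6*, whose product TSG-6 couples these heavy chains, was 9.97, 10.5 and 12.5 CPM under DMSO, 5.55, 3.98 and 8.12 CPM under XAV939 (log2 −0.89, adjusted p = 0.0399) and 3.58, 2.73 and 5.02 CPM under IWR-1 (log2 −1.52, adjusted p = 0.0012). Its XAV939 call was lost in 6 of 9 fits that left out 1 library, with log2 values from −1.20 to −0.68 over the 9, and its siTnks/2 call (log2 −0.98, adjusted p = 0.0409) was lost in 5 of 6, with values from −1.22 to −0.81. Without siTnks/2 replicate 2 the siTnks/2 value was −0.81 (adjusted p = 0.0569). With the block 3 fell after siTnks/2 (34.6% of all genes called), and 1 rose and 4 fell with XAV939 (33.4%).

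Of 6 other hyaluronan-degrading genes tested, 3 rose after siTnks/2 (18.0% of all genes were called), among them *Hexa* and *Gusb*, which encode lysosomal enzymes. *Hexa* went from 235, 235 and 250 CPM to 373, 444 and 358 CPM (log2 0.71, adjusted p = 0.00696), and its call held whichever library was left out. The *Gusb* call (0.41) was lost in 4 of 6 such fits. With the block 3 rose and 1 fell after siTnks/2 (34.6% of all genes called). With XAV939 0 of 6 passed in edgeR (17.4% of all genes), and 2 fell with the block (33.4% of all genes called). With IWR-1 2 of 6 fell in edgeR, near the share of all genes called, 36.4%, and 3 fell with the block (47.5% of all genes called). *Cemip2* was among the 2 called in edgeR (−0.65, adjusted p = 0.0125), and its call was lost without IWR-1 replicate 2 (log2 −0.60, adjusted p = 0.0555).

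Proteases that cleave lecticans fell with the drugs. *Adamts1*, *Adamts4* and *Adamts5*, 3 of 4 tested, fell with XAV939 and with IWR-1. Of all genes, 17.4% and 36.4% were called in these comparisons. *Adamts5*, a main aggrecanase of mouse cartilage, was 135, 115 and 127 CPM under DMSO, 55.9, 46.5 and 59.1 CPM under XAV939 (log2 −1.22, adjusted p = 0.00331) and 14.0, 16.8 and 28.1 CPM under IWR-1 (log2 −2.68, adjusted p = 1.25e-05). *Adamts4* fell by 0.80 with XAV939 (adjusted p = 0.0158) and by 2.11 with IWR-1 (adjusted p = 2.53e-05), and the XAV939 call was lost without XAV939 replicate 1 (log2 −0.71, adjusted p = 0.0625). *Adamts1* fell by 1.11 and 0.85. After siTnks/2 *Adamts9* (0.45, adjusted p = 0.0488) was the one call of 4 tested (18.0% of all genes called) and was lost in 5 of 6 fits. Without siTnks/2 replicate 2 its value was 0.44 (adjusted p = 0.0607). With the block 2 rose and 2 fell, where 34.6% of all genes were called. *Adamts5* was 82.2, 61.9 and 81.6 CPM with siCtrl and 47.6, 7.66 and 45.0 CPM with siTnks/2, with replicate 2 again the lowest.

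The remaining lecticans are those of brain. *Bcan* was a rare transcript that rose from 11.2, 12.0 and 11.2 CPM to 35.7, 33.6 and 36.3 CPM after siTnks/2 (log2 1.61, SE 0.07, adjusted p = 0.000462) and by 1.63 with IWR-1 (adjusted p = 7.55e-05). *Ncan*, at most 1.39 CPM in the siRNA libraries, rose by 1.64 after siTnks/2 (adjusted p = 0.0268), a call lost in 4 of 6 fits. The link protein gene *Hapln4* fell by 0.90 with XAV939 and by 0.76 with IWR-1. After siTnks/2, 2 of 3 tested genes of this list rose in edgeR (18.0% of all genes called). With the block 2 rose and 1 fell (34.6%). Over all 6 lists, 3 of 18 calls after siTnks/2, 7 of 13 with XAV939 and 27 of 35 with IWR-1 held in every fit that left out 1 library.

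**Figure D4:**
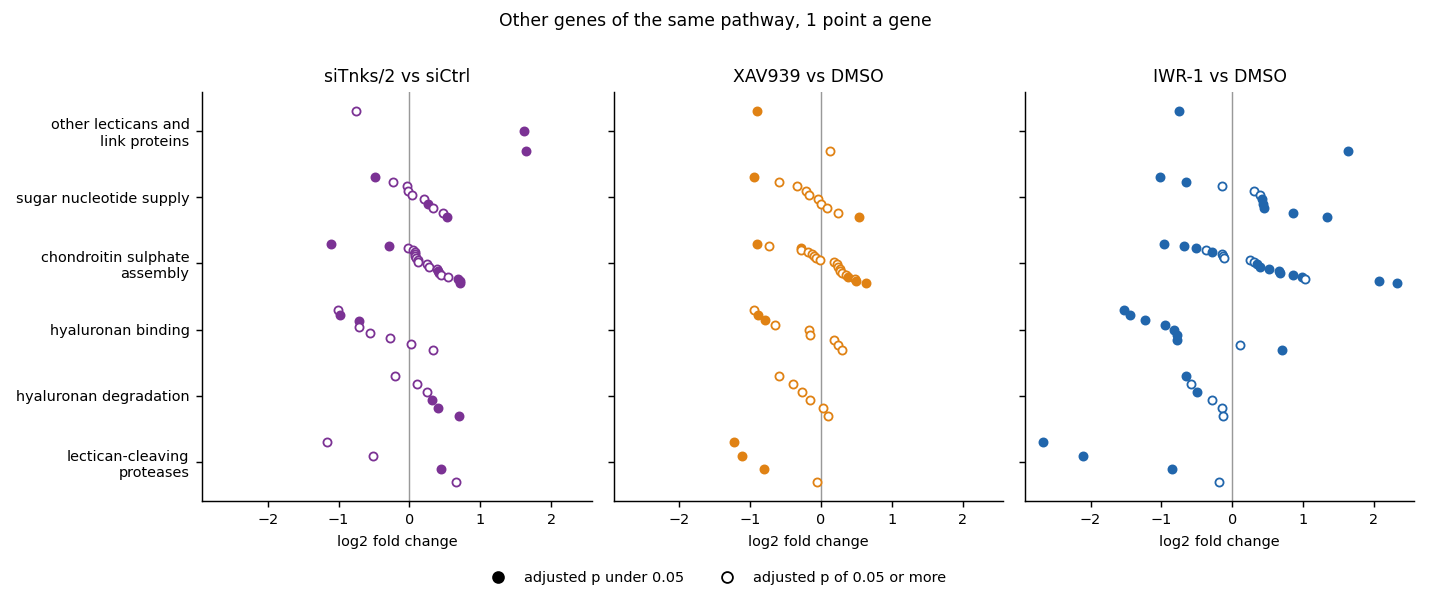
Log2 fold change (x axis) of each tested gene of the 6 pathway lists (rows) in the 3 comparisons with controls (panels), with filled points for an adjusted p under 0.05. With IWR-1 the lectican-cleaving proteases reach −2.68 while chondroitin sulphate assembly genes reach 2.32.

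The chondrocyte markers moved with *Acan* and *Hapln1*. Of 15 tested, 14 rose with IWR-1, 4 with XAV939 and 6 after siTnks/2, and with the block 14, 11 and 11. Of all genes, 36.4%, 17.4% and 18.0% were called, and with the block 47.5%, 33.4% and 34.6%. Their summed level was 28500 to 38720 CPM under DMSO, 39590 to 59331 CPM under XAV939 and 93572 to 119030 CPM under IWR-1. It was 87689 to 118180 CPM with siCtrl and 124180 to 203590 CPM with siTnks/2, where replicate 2 was the highest as it was for *Acan*. Leukocyte marker sums, though small, also moved, from at most 4.95 CPM under DMSO to at most 14.1 CPM under IWR-1 and from at most 13.7 CPM with siCtrl to at most 54.5 CPM with siTnks/2. With IWR-1 *Laptm5* (2.67, adjusted p = 7.84e-06) and *Cd74* (1.16, adjusted p = 0.0294) rose and *Csf1r* fell (−1.16, adjusted p = 0.0215), of 4 leukocyte markers tested. *Laptm5* also rose by 1.15 with XAV939 (adjusted p = 0.00423), as did *Cd74* by 2.14 (adjusted p = 0.00296), and *Laptm5* was the one call of 2 tested after siTnks/2 (1.85, adjusted p = 0.00502). Osteoblast markers summed to 42.6 to 65.7 CPM under DMSO, 57.2 to 66.4 CPM under XAV939 and 42.8 to 61.2 CPM under IWR-1, and to 59.5 to 71.1 CPM with siCtrl and 77.6 to 132 CPM with siTnks/2. Of 4 tested with each drug, the bone transcription factor gene *Sp7* rose by 1.62 with XAV939 (adjusted p = 0.000168) and by 2.47 with IWR-1 (adjusted p = 3.11e-06), and the osteocalcin gene *Bglap* by 1.88 (adjusted p = 0.00687) and 1.51 (adjusted p = 0.00946). After siTnks/2 *Phex* was the one call of 5 tested in edgeR (2.05, adjusted p = 0.00586), and 3 of the 5 rose with the block. The osteoblast marker calls without the block held whichever library was left out. The part of these markers in the results above was not tested.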

How the data were processed

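Poly(A) RNA of 15 libraries of primary mouse articular chondrocytes was sequenced with a stranded kit. Per the labels, the authors used Trimmomatic 0.32 for trimming, TopHat2 2.0.13 for alignment (mm10) and HTSeq 0.6.1p1 for counting per gene, and the deposited values are whole-number counts that were not normalized. The HTSeq strand option and gene annotation are not given in the sources used here. Of 24134 gene identifiers, 24051 matched a symbol.

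Counts were scaled by TMM and tested in edgeR 4.0.16 (R 4.3.3) with the quasi-likelihood test, after filterByExpr and with a prior count of 2. Log2 fold changes include the prior count, whereas SEs and 95% intervals come from estimates without it, which differed clearly for *Has1*. The siRNA table (6 libraries, 13672 genes) and the drug table (9 libraries, 13873 genes) were fitted separately. Differences between a drug effect and the siTnks/2 effect were tested in a joint fit (14271 genes). Such a joint fit takes the 2 experiments as comparable, and each effect was set against its own control. P values were two-sided and adjusted by Benjamini-Hochberg over all genes tested. The labels call the replicates biological without naming cultures, so p values measure the spread between these samples. Levels are CPM with TMM factors, and levels of different genes were compared per kilobase of merged exon. Exact 95% intervals of summed counts cover counting error only. The procedure was run on simulated counts with the same dispersion for all genes and no effect of replicate number. Such counts do not cover the deviations shared by same-number libraries here.

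Replicate numbers come from the titles. Deviations from group means correlated at 0.143 to 0.553 in the 9 same-number drug pairs and 0.424 to 0.519 in the 3 siRNA pairs. Pairs of different number correlated at −0.489 to 0.318 in the drug experiment and −0.409 to 0.097 in the siRNA experiment. The numbers were taken to pair libraries. In the drug experiment the ranges overlapped, so the pairing is less certain there.

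Alternatives were RLE and upper-quartile factors, other filters, DESeq2 1.42.0, the replicate block, the compared groups alone, the limits of the study (with DESeq2 too, added after seeing the data), and each library left out. All 10 members were named, with the pathway genes called against a control, some of which are counted but not reported here by name. The members and the lists were chosen with earlier results of these data known. Promoter sequences are from RefSeq (GRCm38.p6).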

Additional observations from a re-analysis of the deposited data

Results flagged for a closer look

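In 5 cases the effect of a drug on a member differed from the effect of siTnks/2 by a test of the difference itself, in edgeR over all 15 libraries. The XAV939 effect on *Cemip* was below the siTnks/2 effect by −1.6163 on the log2 scale, and the IWR-1 effect by −1.2439. The IWR-1 effect exceeded the siTnks/2 effect by 1.9809 for *Acan* and by 1.3713 for *Hapln1*. For *Has1* the IWR-1 effect was lower by −3.4892, a value that rests on 0, 1 and 3 counts under IWR-1 and 2, 1 and 4 counts with siTnks/2, and its call was lost in 5 of 15 fits that each left out 1 library. The siCtrl libraries held 6, 7 and 8 counts against 64, 52 and 110 with DMSO, which left little room for a fall after siTnks/2. The calls of *Cemip*, *Acan* and *Hapln1* were kept in all 15 such fits. The experiments differed in the way tankyrase was lowered and in their controls, and these cannot be told apart.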

How the results depend on the processing

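Of 624 refits of 40 member results, 569 kept direction and side of the threshold, 32 lost a call, 15 gained a call and 8 changed sign. Of 1285 refits of 85 calls in the pathway lists, 1149 kept their call, 136 lost it and 0 changed sign, and of 955 refits of 62 calls in the cell type marker lists these were 902, 53 and 0. With the replicate block the members called were 5 after siTnks/2, 5 with XAV939 and 3 for the XAV939 effect against the siTnks/2 effect. Over all genes the block moved the calls from 2459 to 4727 after siTnks/2, from 2416 to 4630 with XAV939, from 2442 to 4258 between the drugs and from 1922 to 4018 for the difference between the XAV939 and siTnks/2 effects, and fitting the compared groups alone gave 1569 with XAV939. Calls of members other than those given beside the results were not changed by the block. With the limits of the study applied to edgeR the members called were 0 after siTnks/2, 0 with XAV939, 1 with IWR-1 and 0 between the drugs, and with the same limits in DESeq2, an alternative chosen after seeing the data, 0, 0, 3 and 1. Over all genes these limits were passed by 0, 1, 145 and 0 in edgeR, and by 81, 198, 660 and 166 in DESeq2. Leaving out 1 library gave 1 to 5 members after siTnks/2, 2 to 3 with XAV939, 4 to 7 with IWR-1, 3 to 6 between the drugs, 1 to 1 for the XAV939 effect and 3 to 4 for the IWR-1 effect against siTnks/2. In the same order these fits called 608 to 2868, 1322 to 2484, 3771 to 5669, 1343 to 3044, 1241 to 2159 and 2726 to 3936 of all genes. The changes of sign were in values without a call. *Hapln3* after siTnks/2 was −0.0027 with upper-quartile factors, −0.0099 with the replicate block and −0.1697 to 0.1222 with 1 library left out, and *Cemip* ran from −0.4326 to 0.0341 with XAV939 and from −0.1833 to 0.4085 with IWR-1. The cause of these changes was not tested. Counts of 3 to 9 limit *Has3*, and counts of 0 to 8 limit *Has1* under IWR-1 and in the siRNA libraries.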
